A study of Mus musculus with 5 samples.

Results

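The 10 genes described here encode colony-stimulating factors and chemokines, most of which draw neutrophils or monocytes into tissue or sustain them there. They were chosen by name (Csf1, Csf2, Csf3, Cxcl1, Cxcl2, Cxcl3, Cxcl5, Cxcl16, Ccl2 and Ccl7) out of 23771 genes in a table of transcript levels of 4T1 cancer cells in mouse lung. The question was how the level of each transcript in cancer cells differed between lungs primed with tumor-secreted factors (TSF) and lungs given control medium (CM), and which shares of neutrophils, monocytes and macrophages the same libraries held.

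Colony-stimulating factors are growth factors of myeloid cells. Csf3 (G-CSF) drives the production of neutrophils and their release from the bone marrow, Csf2 (GM-CSF) acts on granulocytes and macrophages, and Csf1 (M-CSF) keeps monocytes and macrophages alive through its receptor Csf1r. Chemokines are small proteins that bind G protein-coupled receptors on leukocytes and direct their movement: Cxcl1, Cxcl2, Cxcl3 and Cxcl5 act on Cxcr2 of neutrophils, Ccl2 and Ccl7 act on Ccr2 of monocytes, and Cxcl16, a membrane-bound chemokine that can be shed, binds Cxcr6 of T cells and other lymphocytes. Many of these genes are induced by interleukin-1, tumor necrosis factor or interleukin-17 through the transcription factor NF-kB, and breast carcinomas that release G-CSF are known to raise neutrophil numbers in mice.

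Female BALB/c mice, with no engineered allele named in the labels, received TSF or CM intravenously 3 times per week for 3 weeks. TSF was medium conditioned by pieces of 4T1 mammary tumors, and CM was the medium without tumor. All mice then received 25000 4T1 cells, an established mammary carcinoma line, carrying the surface reporter CD90.1, and lungs were taken at day 11 (10 weeks of age) or day 16 (11 weeks of age). Each library pooled the lungs of 3 mice and was made by 5′ 10x Genomics single-cell RNA sequencing. There were 5 libraries: 1 of CM at day 11, 2 of TSF at day 11 (a and b), 1 of CM at day 16 and 1 of TSF at day 16. Transcript levels were analysed for the cancer cells of the day 16 libraries only, so each treatment had 1 library, no difference has a replicate check, and no test between treatments was possible.

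The TSF library held 139 cancer cells with 3937739 UMIs (unique molecular identifiers, each standing for 1 captured transcript) and the CM library 29 cancer cells with 726849 UMIs. The depth of a cancer cell was similar in the middle of the range, with a median of 26615 UMIs under TSF and 27679 under CM, but 8 of 29 CM cells (27.6%) and 14 of 139 TSF cells (10.1%) had under 10000 UMIs. Shares of cells with a UMI could not be brought to equal depth, and the background share of each gene in lung cells that do not express it was not analysed here. Between the day 16 libraries, 31 cell barcodes were shared, none of them that of a CM cancer cell. Whether any was that of a TSF cancer cell was not checked. The 5 libraries held 3835 to 5580 cells each.

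The authors named the cancer cells from CD90.1 expression, and this label was set beside carcinoma markers. The keratin Krt8 had a UMI in 137 of 139 TSF cells and 29 of 29 CM cells, and Krt18 in 138 and 28 cells. Epcam, an epithelial adhesion protein, was seen in 95 TSF cells and 8 CM cells, and Cdh1 in 35 and 2. The reporter CD90.1 was seen in 48 TSF cells and only 2 CM cells. The cells under both treatments thus carried keratins, while Epcam was 6.56-fold, CD90.1 6.86-fold and Cdh1 2.60-fold higher in mean level in the TSF library. Levels of these markers in other lung cells were not analysed here, so keratins alone do not settle the label of the CM cells. The part of these marker differences in the differences given below was not tested.

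Transcripts of leukocytes were rare in the cancer cells. Of 11 neutrophil markers, 5 were at 0 in the TSF cells (Mmp8, Ngp, Camp, Ltf and Ly6g) and 10 were at 0 in the CM cells, and the summed level was 1.47 CP10k under TSF and 0.243 under CM. CP10k is the number of UMIs of a gene per 10000 UMIs of the cell, averaged over all cancer cells of the library. S100a8 had UMIs in 2 TSF cells, S100a9 in 4, Csf3r in 7 and Cxcr2 in 10, each with none in CM. Mmp9, which carcinoma cells can also express, was the marker seen most, in 48 TSF cells and 5 CM cells. Of 13 monocyte and macrophage markers, 9 were at 0 in each library, among them Lyz2, Csf1r, Adgre1, C1qa and Marco in both, and the summed level was 0.145 CP10k under TSF and 0.148 under CM. The summed level of 9 pan-leukocyte and lymphocyte markers was 0.186 CP10k under TSF and 0.00958 under CM, with Ptprc (CD45) in 4 and Coro1a in 9 TSF cells and neither in a CM cell, and that of 6 endothelial and fibroblast markers was 1.15 and 0.557. The authors had subtracted ambient RNA from the counts before these levels were computed, which can lower such transcripts. The part of leukocyte transcripts in the differences between the libraries was not tested.

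Cxcl5, Cxcl3, Cxcl1 and Cxcl2 lie in this order within 147 kb of chromosome 5, and Ccl2 and Ccl7 within 12.0 kb of chromosome 11 (GRCm38, GENCODE M21). In detail, the coordinates are chr5:90759360-90761624 for Cxcl5, chr5:90786103-90789600 for Cxcl3, chr5:90891241-90893115 for Cxcl1 and chr5:90903871-90905938 for Cxcl2, all on the plus strand. Ccl2 (chr11:82035571-82037453) and Ccl7 (chr11:82045712-82047525) are also on the plus strand, as is Csf3 (chr11:98701263-98703629). Csf2 (chr11:54247271-54249667), Cxcl16 (chr11:70453983-70459984) and Csf1 (chr3:107741048-107760469) are on the minus strand. All 10 are annotated as protein-coding. The transcripts of Cxcl2 and Cxcl3 share an identical run of 110 bases, so reads that lie inside it cannot be assigned to 1 of these genes and the split of UMIs between them is uncertain. Between the other genes of each of these regions the longest identical run was 23 bases.

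Since many of these genes are known NF-kB targets, the RefSeq promoter windows were searched for a simple form of the NF-kB site (the letters GGG, then any 3 bases, then TTCC) on both strands of the 250 bases before the transcription start. Windows were at hand for 5 of the 10 genes (Csf1, Csf2, Cxcl1, Cxcl2 and Cxcl3). The letters were present in 4 of these 5, all but Csf2, and in 4.65% of the 32851 promoter windows of the table. The stretches that hold the matches are shown 5′ to 3′ on the strand of the gene (GRCm38.p6), with the matching bases, on either strand, in capitals.
Cxcl1, chr5:90891146-90891194, plus strand: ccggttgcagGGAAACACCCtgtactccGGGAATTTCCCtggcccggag
Cxcl2, chr5:90903792-90903840, plus strand: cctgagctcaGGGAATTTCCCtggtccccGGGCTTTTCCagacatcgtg
Cxcl3, chr5:90786018-90786070, plus strand: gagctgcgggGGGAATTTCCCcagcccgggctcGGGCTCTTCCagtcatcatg
Csf1, chr3:107760604-107760633, minus strand: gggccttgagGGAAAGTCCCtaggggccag

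The run GGGAATTTCCC occurred in all 3 Cxcl genes with a window, where it holds 2 overlapping matches, 1 on each strand, and each of these genes had a further match nearby. Counted from the transcription start, the stretches begin at -107 (Cxcl2), -99 (Cxcl1), -83 (Cxcl3) and -164 (Csf1). Of the other motifs searched in the same way on both strands, TTGCNNAA (C/EBP type) was found in Csf2 and in 9.56% of all windows, and TATAAA in Cxcl3 and in 12.4%. TGANTCA (AP-1) and TGACGTCA (CRE) were in none of the 5 and in 6.75% and 1.55% of all windows. A match is a description of letters and not a measured binding site, and the genes with these letters had ratios of level between the libraries that ran from 0.631 (Csf1) to 9.51 (Cxcl2).

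In cancer cells of TSF lungs, Csf3, Cxcl2, Cxcl5 and Ccl2 were higher in mean level than in CM lungs, Csf1 and Cxcl16 were lower, and Cxcl1 and Csf2 lay within 1.5-fold. Cxcl3 and Ccl7 were nearly absent under both treatments. Of the 10 genes, 8 had a UMI in 10% or more of the cancer cells under TSF or under CM, the condition set for a gene to be counted. Among these 8, 4 were at least 1.5-fold higher in TSF, against 15.6% of the 10201 genes that met the condition, and 2 were at least 1.5-fold lower, against 29.8%. Of the 4 higher genes, Cxcl5 and Ccl2 met the condition only through TSF, so the condition itself favoured counting them as higher. With a minimum of 25% of cells, 4 of the genes were left. Of these, 1 was higher (Csf3) and 2 were lower, against 12.7% and 27.2% of all genes. The median ratio of TSF over CM was 2.39 over the 8 genes and 0.877 over all genes that met the condition. When every ratio was divided by this median of all genes, 21.5% of genes were higher and 22.2% lower, 5 of the 8 were higher (Csf2 now among them, at 1.68) and none was lower. A pseudocount of 1, which damps genes of low level, left 2 higher (Csf3 and Cxcl2) and none lower. The summed level of the 10 genes was 14.5 CP10k under TSF and 8.85 CP10k under CM.

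**Figure D1:**
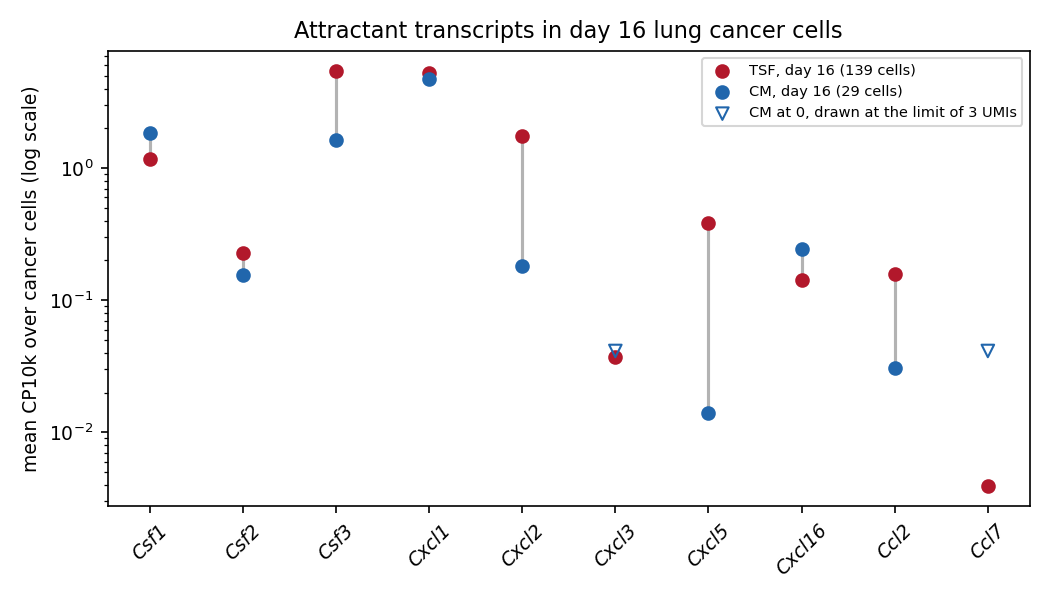
Mean level of each attractant transcript in day 16 cancer cells of 1 TSF library (139 cells, red) and 1 CM library (29 cells, blue), in CP10k on a log scale. Points are library means with no error bar, and grey lines join the values of a gene. Open triangles mark genes at 0 in CM at the approximate limit of 3 UMIs over the summed UMIs of the library. Cxcl5, Cxcl2, Ccl2 and Csf3 lie higher in TSF, and the CM points of Cxcl5 and Ccl2 rest on 1 cell each and lie below the limit of 3 UMIs, whereas Cxcl1 differs by 1.11-fold.

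**Figure D2:**
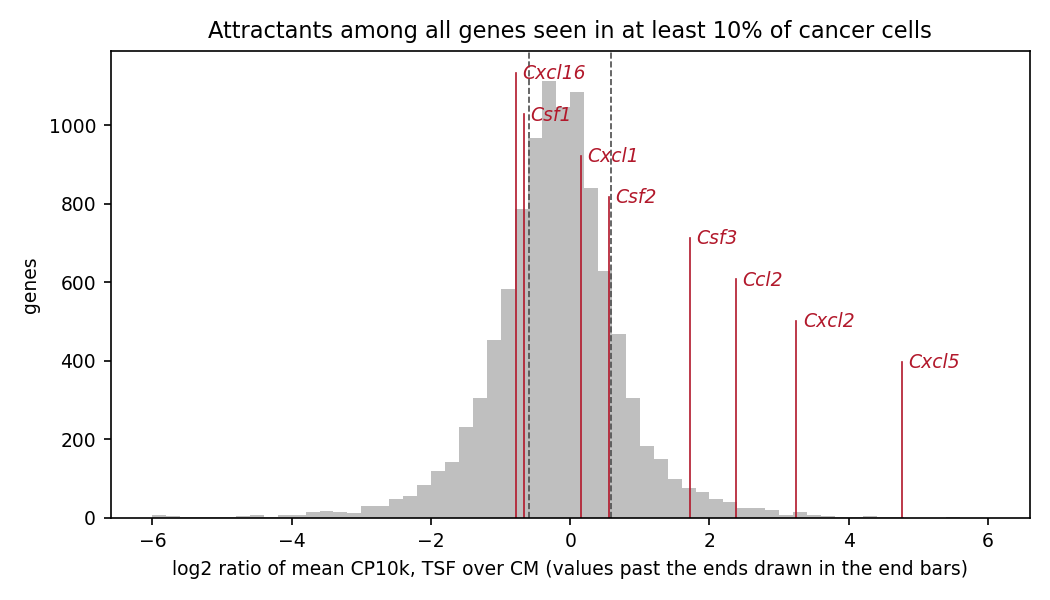
Log2 ratio of mean CP10k, TSF over CM, for the genes seen in 10% or more of the cancer cells under TSF or under CM (grey bars, number of genes). Dashed lines mark 1.5-fold in either direction, and red lines mark the 8 attractants that met the condition, their heights chosen only for legibility. The bulk of genes is centred slightly below 0 (median log2 ratio -0.19), and Cxcl5, Cxcl2, Ccl2 and Csf3 lie in the right tail.

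Csf3, the neutrophil growth factor, averaged 5.39 CP10k in the cancer cells of the TSF library and 1.63 CP10k in those of the CM library, a ratio of 3.31. The transcript was present in 99 of 139 TSF cells (71.2%, 95% CI 62.9 to 78.6%) and in 16 of 29 CM cells (55.2%, CI 35.7 to 73.6%). These confidence intervals (CI, exact Clopper-Pearson for shares and exact conditional for ratios of shares throughout) overlap and cover counting error only. The ratio of the shares was 1.29 (CI 0.757 to 2.35). Cells with a UMI held 7.56 CP10k on average under TSF and 2.95 CP10k under CM, a ratio of 2.56, so the larger part of the difference lay in the level of the cells that had the transcript. Among all genes that met the condition, 2.84% had a ratio as high or higher.

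Among the chemokines that act on Cxcr2, Cxcl2 was 9.51-fold higher in TSF whereas Cxcl1 was nearly equal. Cxcl1 averaged 5.26 CP10k under TSF and 4.74 CP10k under CM, a ratio of 1.11. It was present in 86 of 139 TSF cells (61.9%, CI 53.3 to 70.0%) and in 13 of 29 CM cells (44.8%, CI 26.4 to 64.3%), a ratio of shares of 1.38 (CI 0.766 to 2.70). Per cell with a UMI, its level was 8.51 CP10k under TSF and 10.6 CP10k under CM, a ratio of 0.805. The share of cells and the level per cell of Cxcl1 thus pointed in opposite directions.

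Cxcl2 averaged 1.73 CP10k under TSF and 0.182 CP10k under CM. It was present in 34 of 139 TSF cells (24.5%, CI 17.6 to 32.5%) and in 5 of 29 CM cells (17.2%, CI 5.85 to 35.8%), and the ratio of shares was 1.42 (CI 0.552 to 4.65). The level per cell with a UMI was 7.09 CP10k under TSF and 1.06 CP10k under CM, a ratio of 6.70. Most of the Cxcl2 difference therefore lay in the level per positive cell, as for Csf3. In the CM library the gene rested on 20 UMIs, of which 11 were in 1 cell of 36842 UMIs and the other cells held 5, 2, 1 and 1. Counting error of these 20 UMIs alone would put the ratio between 6.16 and 15.6. Neutrophils can make Cxcl2 too, and the summed level of the neutrophil markers was also higher in the TSF cells (1.47 against 0.243 CP10k). Their part in the Cxcl2 difference was not tested. Among all genes that met the condition, 33 (0.324%) had a ratio as high or higher.

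Cxcl5, an epithelial neutrophil attractant, averaged 0.382 CP10k under TSF and 0.0141 CP10k under CM. It was present in 23 of 139 TSF cells (16.5%, CI 10.8 to 23.8%) and in 1 of 29 CM cells (3.45%, CI 0.0873 to 17.8%). The CM level was 1 UMI in a cell of 24512 UMIs and lay below 0.0413 CP10k, the level of 3 UMIs over the summed UMIs of that library. The ratio of means was 27.2, and the counting error of this UMI alone would put it between 4.88 and 1074. The size of the Cxcl5 difference is thus poorly determined. The ratio of shares was 4.80 (CI 0.779 to 198), and the ratio of the level per cell with a UMI was 5.66.

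Cxcl3, the fourth Cxcr2 ligand, was detected in 2 of 139 TSF cells (1.44%, CI 0.175 to 5.10%) and in 0 of 29 CM cells, which allows a share of cells with a UMI of up to 10.3% (the limit of 3 counts in 29). Of its 8 UMIs, 7 were in a cell of 33169 UMIs that also held 91 UMIs of S100a8 and 5 of Retnlg, a further neutrophil gene. The remaining UMI was in a cell of 3291 UMIs. Its mean of 0.0370 CP10k was below the CM limit of 0.0413 CP10k, so no fold is given. The cell with S100a8 was singled out after the values had been seen.

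Of the attractants of monocytes, Ccl2 was higher in TSF. It averaged 0.159 CP10k under TSF and 0.0306 CP10k under CM, a ratio of 5.20, and was present in 17 of 139 TSF cells (12.2%, CI 7.29 to 18.9%) and 1 of 29 CM cells (3.45%, CI 0.0873 to 17.8%). The CM value came from 4 UMIs in 1 cell of 45132 UMIs and, as a mean of CP10k over cells, was also below 0.0413, and its counting error would put the ratio between 2.03 and 19.1. Here the share of cells contributed more, with a ratio of 3.55 (CI 0.556 to 148), than the level per cell with a UMI, with a ratio of 1.46. Ccl7, its neighbour on chromosome 11, had 1 UMI in each of 2 TSF cells (of 37489 and 35421 UMIs) and 0 of 29 CM cells had one, for which the same limit is 10.3%. Its TSF mean of 0.00395 CP10k was below the limit of either library, and no fold is given.

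Csf1 was the attractant seen in the largest share of cancer cells, in 112 of 139 TSF cells (80.6%, CI 73.0 to 86.8%) and 21 of 29 CM cells (72.4%, CI 52.8 to 87.3%). Its mean level was 1.17 CP10k under TSF and 1.85 CP10k under CM, a ratio of 0.631. The ratio of shares was 1.11 (CI 0.694 to 1.87), so the lower mean lay entirely in the level per cell with a UMI, which was 1.45 CP10k under TSF and 2.56 CP10k under CM (ratio 0.567). Divided by the median ratio of all genes, the Csf1 ratio was 0.720, within 1.5-fold. Among genes that met the condition, 26.3% had a ratio as low or lower.

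Cxcl16 had the same pattern. Its mean was 0.143 CP10k under TSF and 0.244 CP10k under CM, a ratio of 0.585, with nearly equal shares of 36 of 139 TSF cells (25.9%, CI 18.8 to 34.0%) and 7 of 29 CM cells (24.1%, CI 10.3 to 43.5%). The ratio of the level per cell with a UMI was 0.546. Divided by the median ratio of all genes it was 0.668, also within 1.5-fold.

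Csf2 averaged 0.228 CP10k under TSF and 0.155 CP10k under CM, a ratio of 1.47. It was present in 22 of 139 TSF cells (15.8%, CI 10.2 to 23.0%) and 3 of 29 CM cells (10.3%, CI 2.19 to 27.4%). In the CM library it rested on 16 UMIs, 8 in a cell of 35889 UMIs that also held 2 of the Cxcl2 UMIs, 6 in another cell and 2 in the last, which would put the ratio between 0.906 and 2.57 by counting error. A difference in Csf2 was therefore not detectable at this depth.

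**Figure D3:**
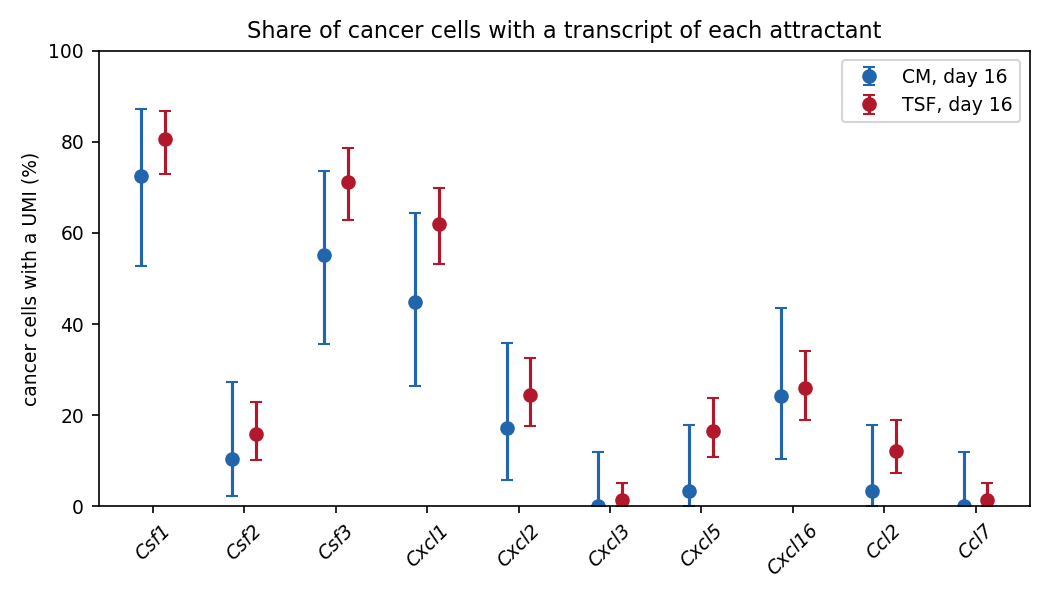
Percent of day 16 cancer cells with at least 1 UMI of each attractant in the CM library (blue, 29 cells) and the TSF library (red, 139 cells), with exact 95% Clopper-Pearson intervals as bars. The TSF point is above the CM point for each of the 10 genes, and the intervals of the libraries overlap for each of them.

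All 8 genes that met the condition were present in a larger share of TSF cells than of CM cells, but none of the 8 ratios of shares had an interval that left out 1. For comparison, 49.1% of all genes that met the condition had a larger share in TSF. Cxcl5 and Ccl2 met the condition only through their TSF share, so their larger share in TSF was fixed by it. Csf3, Cxcl2 and Cxcl5 had both a larger share of cells and a level per positive cell at least 2.56-fold higher. The CM level per positive cell came from 16 cells for Csf3, 5 for Cxcl2 and 1 cell with 1 UMI for Cxcl5. The ratio of level of Cxcl5 is thus poorly determined. Csf1, Cxcl16, Cxcl1 and, slightly, Csf2 (ratio of level 0.961) combined a larger share with a lower level per positive cell.

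**Figure D4:**
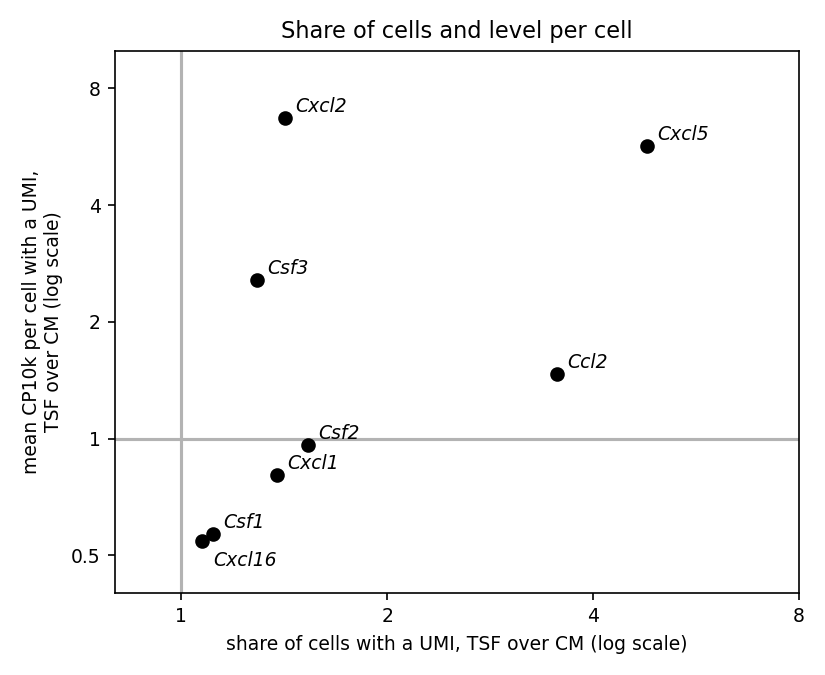
For each of the 8 attractants, the ratio of TSF over CM in the share of cancer cells with a UMI (horizontal, log scale) against the ratio in mean CP10k per cell with a UMI (vertical, log scale). Grey lines mark equality. All points are to the right of the vertical line, and Cxcl2, Cxcl5 and Csf3 stand highest, at 6.70, 5.66 and 2.56, while Csf1 and Cxcl16 are lowest, at 0.567 and 0.546. Points have no error bar, and the CM values of Cxcl5 and Ccl2 rest on 1 cell each.

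Cancer cells themselves made up a larger part of the TSF library, with 139 of 4896 annotated cells against 29 of 3567, a ratio of 3.49 (CI 2.33 to 5.41), so the number of attractant-positive cancer cells in the lung suspension differed more than their share. Csf3-positive cancer cells numbered 20.2 per 1000 annotated cells in TSF and 4.49 in CM, a ratio of 4.51 (CI 2.64 to 8.19). Cxcl1-positive cancer cells numbered 17.6 and 3.64 per 1000 cells, a ratio of 4.82 (CI 2.67 to 9.42). For Cxcl2 the values were 6.94 and 1.40 per 1000 cells (ratio 4.95, CI 1.93 to 16.2) and for Cxcl5 4.70 and 0.280 (ratio 16.8, CI 2.72 to 690). The intervals lay above 1 for all 8 genes that met the condition, also for Csf1 (ratio 3.89) and Cxcl16 (ratio 3.75), which had lower mean levels in TSF. The ratio of cancer cell shares, 3.49, enters each of these values, so an interval above 1 is not particular to the attractants. Cells with the keratin Krt8, for example, had a ratio of 3.44 (CI 2.29 to 5.33). Those with Cxcl10, a gene with a mean level far lower in TSF (ratio 0.138), had a ratio of 1.19 (CI 0.533 to 2.79). The share of all genes with an interval above 1 was not computed.

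The same libraries differed in neutrophils. In the TSF library of day 16 there were 1407 neutrophils among 4896 annotated cells (28.7%, CI 27.5 to 30.0%), and in the CM library 203 among 3567 (5.69%, CI 4.95 to 6.50%). The ratio was 5.05 (CI 4.36 to 5.88), and over all granulocytes, which include 18 and 11 basophils, it was 4.85. Among cells with at least 2000 UMIs the neutrophil ratio was 29.1, where 560 TSF and 16 CM neutrophils remained (39.8% and 7.88%). Neutrophils of the TSF library were deeper, with a median of 1694 UMIs against 1299 in CM, and the lowest value of any cell was 800 UMIs. The part of this depth in the neutrophil ratios was not tested. Since the libraries also differed in cancer cells, the number of neutrophils per cancer cell was nearer, at 10.1 in TSF (CI 8.50 to 12.1) and 7.0 in CM (CI 4.73 to 10.7), with overlapping intervals. Thus the library with the higher Csf3, Cxcl2 and Cxcl5 in its cancer cells also held the larger share of neutrophils, but with 1 library of each treatment no relation between these values can be tested.

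Monocytes and M2 macrophages, which can carry the receptors of Ccl2 and Csf1, took larger shares in the TSF library by smaller factors. Monocytes made up 3.55% of annotated cells in TSF (174 cells) and 2.35% in CM (84 cells), a ratio of 1.51 (CI 1.16 to 1.98). M2 macrophages made up 3.19% (156 cells) and 1.91% (68 cells), a ratio of 1.67 (CI 1.25 to 2.26). Alveolar macrophages, the resident macrophages of the air spaces, were lower in TSF with 3.59% (176 cells) against 5.66% (202 cells), a ratio of 0.635 (CI 0.516 to 0.781). Out of non-granulocytes this last ratio was 0.842 (CI 0.684 to 1.04), which includes 1. Counted in the same way, the monocyte ratio was 2.00 (CI 1.53 to 2.63) and the M2 macrophage ratio 2.22 (CI 1.66 to 2.99). The class of M1 macrophages and dendritic cells had 1.21% in each library, a ratio of 1.00 (CI 0.663 to 1.52). Per cancer cell there were 1.25 monocytes in TSF and 2.90 in CM. These cell types were named by the authors, and their marker levels were not analysed here.

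At day 11 the treatments did not stand apart in neutrophils. They made up 4.01% of annotated cells in the CM library and 4.26% and 4.54% in TSF libraries a and b. The intervals of these libraries overlap (3.41 to 4.69%, 3.73 to 4.85% and 3.97 to 5.17%). Levels of the attractants at day 11 were not analysed here, and the CM library of day 11 held only 6 cancer cells.

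**Figure D5:**
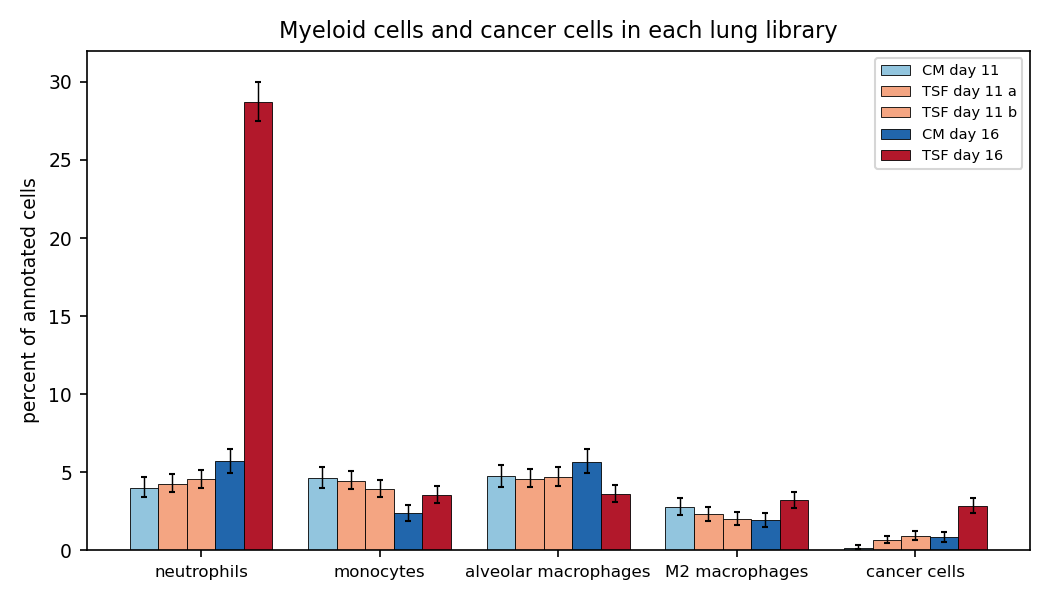
Share of neutrophils, monocytes, alveolar macrophages, M2 macrophages and cancer cells among annotated cells in each of the 5 lung libraries, in percent. Bars are single libraries with exact 95% Clopper-Pearson intervals that cover counting error only. Neutrophils stand at 28.7% in the TSF library of day 16 and between 4.01 and 5.69% in the other 4 libraries.

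The receptors of these factors were at or near 0 in the cancer cells. Of 14 receptor genes, 7 had no UMI in either library (Csf1r, Csf2rb2, Cxcr1, Cxcr6, Ccr3, Ackr1 and Ackr2), which by the limit of 3 counts allows UMIs in up to 2.16% of TSF cells and 10.3% of CM cells. Cxcr2, the receptor of Cxcl1 and its relatives, was seen in 10 TSF cells and Csf3r in 7, and neither in CM cells. The single receptor gene that met the condition was Ackr3, a scavenger of other chemokines, with 26 TSF cells and 5 CM cells and a ratio of 1.27.

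Of 27 further chemokine genes measured, 5 met the condition, of which 3 were at least 1.5-fold lower in TSF and 1 higher, with 29.8% and 15.6% over all genes. Cxcl10 and Cxcl9, interferon-induced attractants of T cells, had ratios of 0.138 and 0.385, and Cx3cl1, an attractant of Cx3cr1-positive monocytes and lymphocytes, had a ratio of 0.354. Cxcl9 met the condition only through CM (4 of 29 cells), which favoured counting it as lower. Ccl5 was the higher one, with UMIs in 15 TSF cells and no CM cell. It met the condition only through TSF, which favoured counting it as higher. Its mean was 10.4-fold higher with the CM level set to 3 UMIs over the summed UMIs, an approximate limit. Among 11 other cytokines measured, 8 met the condition, with 1 higher (Tslp, ratio 1.76) and 3 lower, shares of 12.5% and 37.5% that are near those of all genes: Il11 at 0.276, Il34, the second ligand of Csf1r, at 0.348 and Il33 at 0.641.

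Of 7 further proteins that attract or mark inflamed neutrophils, 4 met the condition and 3 were higher in TSF, against 15.6% of all genes. Lcn2, an iron-scavenging acute-phase protein, had a ratio of 1.82 and Mif, a cytokine that can bind Cxcr2, a ratio of 2.06. Complement C3, the precursor of an anaphylatoxin, was seen in 40 TSF cells and 0 CM cells. C3 met the condition only through TSF, so the condition itself favoured counting it as higher. It was 8.18-fold higher with the CM level set to the same approximate limit of 3 UMIs.

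Genes that act upstream of the attractants were counted in the same way. Of 14 inducers and their receptors, 10 met the condition, with 2 higher (Il17ra at 1.53 and Tlr2 at 1.61) and 3 lower (Il1rap at 0.544, Tnfrsf1a at 0.574 and Tnfrsf1b at 0.633). These shares of 20.0% and 30.0% are near the 15.6% and 29.8% of all genes, the median ratio was 1.01 against 0.877, and after division by the median of all genes 4 of the 10 were higher, against 21.5%. Il1b, which encodes interleukin-1 beta, was seen in 5 TSF cells and 0 CM cells, and Il17a in none. All 9 NF-kB factors and regulators met the condition, and 6 were at least 1.5-fold lower in TSF, among them Rela at 0.347, Nfkb2 at 0.396, Ikbkb at 0.535 and Relb at 0.573, and none was higher (29.8% and 15.6% of all genes). Nfkbia, an NF-kB inhibitor that is itself induced by NF-kB, had a ratio of 1.18. Of 7 genes of mRNA decay and protein shedding, 3 were lower, Zfp36 at 0.406, Elavl1 at 0.571 and Zfp36l2 at 0.592. None was higher, again with 29.8% and 15.6% over all genes.

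The 10 genes were also set beside the other genes of the deposited gene sets that hold them. The KEGG set of cytokine-receptor interaction holds all 10. Its other genes numbered 72 that met the condition, of which 22.2% were higher and 41.7% lower, both above the shares of all genes (15.6% and 29.8%), with a median ratio of 0.859. The Hallmark set of TNF signaling via NF-kB holds 7 of the 10. Of its other 155 genes that met the condition, 10.3% were higher and 52.9% lower, with a median ratio of 0.626, against 15.6% and 29.8% over all genes. The other genes of the Hallmark inflammatory response (97 genes) and of KEGG chemokine signaling (90 genes) had median ratios of 0.868 and 0.896, near that of all genes. Of the inflammatory response genes, 13.4% were higher and 41.2% lower, the latter above the 29.8% of all genes. Of the chemokine signaling genes, 6.67% were higher, below the 15.6% of all genes, and 30.0% lower.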

How the data were processed

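The authors made 5′ 10x libraries, mapped reads with Cell Ranger to mm10 with an added CD90.1 sequence, removed ambient RNA with a customised SoupX, and annotated cells by hand (Seurat 4.1.0 in the submitters' processing notes). The doublet removal of the other cell types was not applied to the cancer cells. The deposited gene table gives mean CP10k per library, the deposited count of cancer cells with a UMI and the deposited percent of such cells. The deposited cell table gives UMI counts per cell, the percent of mitochondrial UMIs and the annotation. The lowest values in the cell table were 800 UMIs and 202 genes, and the highest share of mitochondrial UMIs was 9.99%. Columns of the authors' own comparison (fold change, p- and q-values, ranking, and enrichment scores) were not used. The cell table also held 2 libraries that were not used here.

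Shares were taken over annotated cells, without doublets and unknown cells. They have exact Clopper-Pearson intervals at 95%, and ratios of shares have exact conditional intervals. The ratio of mean CP10k, without a pseudocount, was counted as higher or lower at 1.5-fold for genes seen in 10% or more of the cancer cells under TSF or under CM. A library at 0 was set to 3 UMIs over its summed UMIs, which gives an approximate limit. It is not a strict bound, since levels are means over cells and 3 UMIs in a cell of few UMIs would give more. UMI counts per cell were recovered for genes seen in few cells by matching the mean CP10k to the UMI totals of the cells, with a relative tolerance of 1e-11, and each of the 3059 genes seen in 1 cell had 1 solution. The scripts were tested on simulated data. With 1 library per treatment, no test was made. The 10 genes and all lists were chosen with earlier results of these data known. Genes named from the lists were those past 1.5-fold, at most the 6 with the largest ratio per list in either direction, and receptors and inducers at or near 0. Other named list genes (Nfkbia, Ackr3) were chosen after their values were seen. Coordinates came from GENCODE M21 and promoters from RefSeq on GRCm38.p6, matched by symbol for 5 of 10 genes. Alternatives to these settings are given in the closing section. The scripts ran on Python 3.11.15 with scipy 1.17.1, pandas 2.3.3, numpy 2.4.6 and, for plots, matplotlib 3.10.9.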

Additional observations from a re-analysis of the deposited data

Results flagged for a closer look

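In 5 values of the cell table, TSF and CM stood in opposite order at day 11 and day 16. None of these differences between days was tested, since each day had 1 CM library, and the cause was not tested. Neutrophils per cancer cell were 25 in the CM library of day 11, which held 6 cancer cells, and 6.81 and 5.07 in TSF libraries a and b. At day 16 they were 7.0 in CM and 10.1 in TSF, so that the log2 ratio of TSF over CM was 2.62 higher at day 16 than the mean of day 11. Granulocytes per cancer cell gave nearly the same numbers, 27.8, 7.31 and 5.51 at day 11 and 7.38 and 10.3 at day 16, a difference between days of 2.61 on the log2 scale.

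Monocyte shares were 4.63% in CM and 4.46% and 3.91% in TSF at day 11, and 2.35% in CM and 3.55% in TSF at day 16, a difference of 0.742 between the log2 ratios. M2 macrophage shares were 2.78% in CM and 2.29% and 2.02% in TSF at day 11, and 1.91% and 3.19% at day 16, a difference of 1.11. Basophil shares were 0.455% in CM and 0.313% and 0.396% in TSF at day 11, and 0.308% and 0.368% at day 16, a difference of 0.624 that rests on 11 to 19 basophils in each library.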

How the results depend on the processing

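Over 76 alternative values, 58 stayed within the limits set for them, 16 moved and 2 reversed. Counts had to stay within 1.5-fold, and ratios of cell type shares within their interval. A gene ratio could move as far as the interval of its ratio of shares reached on that side. This is wide for genes seen in few CM cells. Ccl2 thus counted as unmoved at 1.12 with a pseudocount of 1 (5.20 without), and Cxcl5 at 4.80 as a ratio of shares. For such genes the 58 are no measure of stability. With a pseudocount of 1, 2 attractants were at least 1.5-fold higher in TSF and 0 lower, in place of 4 and 2. With a limit of 2-fold 4 were higher and 0 lower (7.59% and 15.7% of all genes), and with at least 25% of cells 1 was higher (Csf3, of 4 genes left). Without ribosomal and mitochondrial genes in the scale 5 were higher (Csf2 now among them, at 1.58) and 1 was lower (Cxcl16). At that setting 18.9% of all genes were higher and 25.7% lower. After division by the median ratio 5 were higher and 0 lower. With a pseudocount of 1, 0.755% of all genes were higher and 1.95% lower. Taken as the ratio of shares of cells, Csf1 (1.11) and Cxcl16 (1.07) reversed, and Csf3 moved to 1.29 and Cxcl2 to 1.42. With a pseudocount, Cxcl2 moved to 2.31 and Cxcl5 to 1.36. With a minimum of 2000 UMIs per cell, the ratio of granulocyte shares was 20.7 and that of neutrophil shares 29.1. Without granulocytes in the total, the monocyte ratio was 2.00 and that of alveolar macrophages 0.842. After division by the median ratio, 4 inducers in place of 2 and 1 gene of mRNA decay and shedding in place of 0 were higher. A pseudocount, by its construction, damps genes of low level, and the cause of the other changes was not tested. No paired analysis was possible because each treatment had 1 library at day 16 and no test was made. For the same reason no library could be left out. The CM library held 29 cancer cells, and Cxcl5 and Ccl2 rest on 1 CM cell each.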
